A study of Homo sapiens with 10 samples.

Results

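The 34 genes described here are giant human genes, several of which span common fragile sites. They were chosen by name, from 19974 protein-coding genes on chromosomes 1 to 22 and X, after earlier results of these data were known, and their members in the data are the ATAC-seq peaks that lie inside their RefSeq gene bodies (GRCh38.p14). The choice used peak counts per gene and per Mb, and the fold enrichment of peaks in the GATA6-AID libraries described below. Those values therefore describe the genes and carry no test. The 34 bodies were 0.642 to 2.47 Mb long with a median of 1.20 Mb, lay on 15 chromosomes, and together held 45.5 Mb, or 3.61% of all protein-coding gene-body length. By role they were 8 enzymes, peptidases and DNA repair proteins (FHIT, WWOX, MACROD2, IMMP2L, DPYD, AGBL4, NAALADL2 and RAD51B), 9 scaffold, trafficking and junction proteins (EXOC4, LPP, BCAS3, CCSER1, CTNNA2, CTNNA3, DLG2, MAGI2 and CALN1), 14 surface and secreted proteins (LRP1B, CSMD1, CSMD3, PTPRD, CNTNAP2, NRXN3, CDH13, SDK1, TENM4, CLSTN2, ERBB4, GPC5, GPC6 and THSD4), and 3 RNA-binding or nuclear proteins (AUTS2, RBFOX1 and RBMS3).

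The cells were DLD-1, an established human colorectal adenocarcinoma line, profiled with the Omni-ATAC form of ATAC-seq on 50000 cells and 150-nt paired reads. A degron line, GATA6-AID-IAA7, carries the endodermal transcription factor GATA6 fused to a tag that marks it for destruction when the auxin IAA is present. It gave AID_aux (12 h of 500 µM IAA), AID_wash (after removal of the auxin; its time is labelled 1, without a unit) and AID_ctrl (titled control and labelled auxin with a time of 0 h, read here as untreated). The other 4 libraries were KO (GATA6 disrupted by CRISPR/Cas9) and WT (unedited DLD-1). Each of the 5 groups had 2 libraries. The labels speak of positive degron clones without saying how many entered the assay, and do not state that the replicates came from different cultures, so the spread between them may be technical.

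Common fragile sites are long stretches of DNA that break or fail to finish replication when replication is slowed, and many lie in giant genes that replicate late. FHIT, WWOX, MACROD2 and IMMP2L are known sites of recurrent focal deletions in colorectal and other cancers. In an ATAC-seq assay a peak marks a stretch where the transposase could reach the DNA, mostly promoters and distal regulatory elements, so the long introns of such genes can hold many separate peaks. A deletion and closed chromatin both leave a stretch without peaks and cannot be told apart in peak lists.

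Promoter sequences are shown because the calls there ran from all libraries to none. RefSeq lists 64 promoter windows for 30 of the 34 genes, each running from 250 bases before to 50 after a transcription start, and LRP1B, CSMD1, CSMD3 and CDH13 are not among them. A pair called in all 10 libraries and a pair called in none, chosen with their calls known, are printed as the RefSeq reference sequence (GRCh38.p14), 5′ to 3′ on the gene's strand, with every CpG dinucleotide in capitals. MACROD2 (chr20:13995266-13995565, plus strand) has 34 CpGs and NAALADL2 (chr3:174859084-174859383, plus strand, a start inside the gene body) has 0, and both were called in all 10 libraries. AUTS2 (chr7:69598225-69598524, plus strand) has 55 CpGs and PTPRD (chr9:10612953-10613252, minus strand) has 40, and neither was called in any library.
MACROD2: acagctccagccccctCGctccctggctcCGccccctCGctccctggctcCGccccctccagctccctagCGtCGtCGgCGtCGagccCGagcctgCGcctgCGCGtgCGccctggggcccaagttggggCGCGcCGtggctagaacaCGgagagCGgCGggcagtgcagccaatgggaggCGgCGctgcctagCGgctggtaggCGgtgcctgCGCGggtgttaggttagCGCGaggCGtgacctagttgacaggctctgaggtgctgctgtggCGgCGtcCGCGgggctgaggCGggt
NAALADL2: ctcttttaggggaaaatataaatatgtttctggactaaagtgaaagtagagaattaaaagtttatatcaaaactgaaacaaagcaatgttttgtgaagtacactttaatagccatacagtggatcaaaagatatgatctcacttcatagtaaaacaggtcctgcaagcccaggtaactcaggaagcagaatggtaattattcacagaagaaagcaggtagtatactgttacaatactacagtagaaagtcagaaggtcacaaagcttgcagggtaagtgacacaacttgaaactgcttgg
AUTS2: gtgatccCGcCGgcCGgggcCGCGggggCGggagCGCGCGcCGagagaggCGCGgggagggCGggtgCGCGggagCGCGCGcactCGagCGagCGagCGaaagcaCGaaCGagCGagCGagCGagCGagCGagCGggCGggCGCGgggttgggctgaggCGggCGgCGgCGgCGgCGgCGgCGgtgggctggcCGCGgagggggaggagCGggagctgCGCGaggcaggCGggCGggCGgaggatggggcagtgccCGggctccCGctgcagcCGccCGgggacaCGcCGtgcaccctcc
PTPRD: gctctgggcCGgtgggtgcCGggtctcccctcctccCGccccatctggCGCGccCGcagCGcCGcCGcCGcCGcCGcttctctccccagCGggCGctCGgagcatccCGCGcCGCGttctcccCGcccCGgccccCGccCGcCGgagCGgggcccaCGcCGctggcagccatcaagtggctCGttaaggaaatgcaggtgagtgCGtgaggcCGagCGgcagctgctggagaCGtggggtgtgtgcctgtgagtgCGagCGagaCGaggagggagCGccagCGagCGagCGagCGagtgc

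Among these 4 windows CpG content and calls did not run together: of the 3 CpG-rich ones MACROD2 was called in every library and AUTS2 and PTPRD in none, and the window without a CpG was called in every library. Over the 64 windows, 17.2% were called in all 10 libraries and 57.8% in none, beside 38.0% and 36.2% of the 22132 RefSeq promoter windows of all genes. The 11 member windows called in all 10 libraries had a median of 29 CpGs and the 37 called in none had a median of 6, close to the medians of 27 and 6 over all windows with these calls. Member windows held fewer CpGs (median 8) than all windows (median 21). The motif GATAA, a core of the GATA factor site, was searched on both strands and was present in 19 member windows (29.7%), beside 18.6% of all windows. It was found in 16 of the 37 member windows called in no library (43.2%) and in 2 of the 11 called in all 10 (18.2%), beside 27.9% and 12.1% of all windows with these calls. Median GC content was 48% in these 37 windows and 67% in these 11, beside 54.3% and 66% in all windows with these calls. The part of base composition in the motif counts was not tested. A match describes these letters and is no evidence of binding.

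At the gene starts the role groups differed in their counts. A peak lay within 1000 bp of the RefSeq start in all 10 libraries for 14 of the 34 genes and in no library for 13. The 14 were 7 of the 8 enzyme genes (all but AGBL4, called in 9), 6 of the 9 scaffold genes (EXOC4, LPP, BCAS3, CCSER1, CTNNA3 and DLG2) and RBMS3, and none of the 14 surface genes was among them. The 13 uncalled starts were 9 surface genes (LRP1B, CSMD1, PTPRD, CNTNAP2, CDH13, SDK1, ERBB4, GPC6 and THSD4), 3 scaffold genes (CTNNA2, MAGI2 and CALN1) and AUTS2. Of the 30 genes with a listed strand, 46.7% had a called start in all 10 libraries and 33.3% in none, beside 31.9% and 59.5% of 232 other long genes and 58.0% and 29.1% of 15813 genes in all. For the 4 genes without a listed strand either gene end was accepted. Between those ends stood CSMD3 (8 libraries), NRXN3 (6), RBFOX1 (3), GPC5 (9), and TENM4 and CLSTN2, each called at its start only in WT replicate 2. A window of 3000 bp gave 15 genes called in all 10 libraries and 9 in none, and the gene added to the 14 was the surface gene CDH13. Other listed starts of surface genes were called too. The NRXN3 promoter window at chr14:79279130-79279429 was called in all 10 libraries, and the THSD4 window at chr15:71115221-71115520 in 7. The contrast of role groups thus holds for the RefSeq gene start and the 1000 bp window.

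The lists themselves differed in length. On chromosomes 1 to 22 and X they held 154150 to 198493 peaks in the 6 degron libraries, where each line is a summit and several can share an interval, and 65939 to 130311 windows of 500 bp in the 4 KO and WT libraries. WT replicate 2 had the shortest list (65939, against 92814 in WT replicate 1), and AID_wash replicate 1 the shortest degron list. All 9 colon epithelial marker genes examined had peaks in all 10 libraries, as had 4 of 10 markers of other cell types, while the neuronal NEUROD1 and the muscle gene MYOD1 had none. The files hold no read counts, so the sequencing depth is unknown.

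Peaks inside the 34 genes numbered 1184 and 996 in AID_aux, 831 and 1054 in AID_wash, 1146 and 1056 in AID_ctrl, 945 and 808 in KO, and 634 and 370 in WT. These were 0.539% to 0.60% of each degron list and 0.561% to 0.725% of each KO or WT list. Of the peaks inside any protein-coding body they were 0.954% to 1.40%, below the 3.61% of coding body length that the genes occupy. Per Mb of body the genes averaged 23.9 ± 2.92 peaks in AID_aux, 20.7 ± 3.46 in AID_wash, 24.2 ± 1.40 in AID_ctrl, 19.2 ± 2.13 in KO and 11.02 ± 4.10 in WT (SD, n = 2 libraries each). In every library their density was 0.264 to 0.388 of that over all protein-coding bodies. Against the 280 other protein-coding genes of at least 500 kb it was 0.688 to 0.750. The other long genes were sparse too: the median gene density over the 10 libraries was 19.2 peaks per Mb for the 34 genes and 24.8 for the other long genes, and 23 of the 34 lay under that median of the other long genes.

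**Figure D1:**
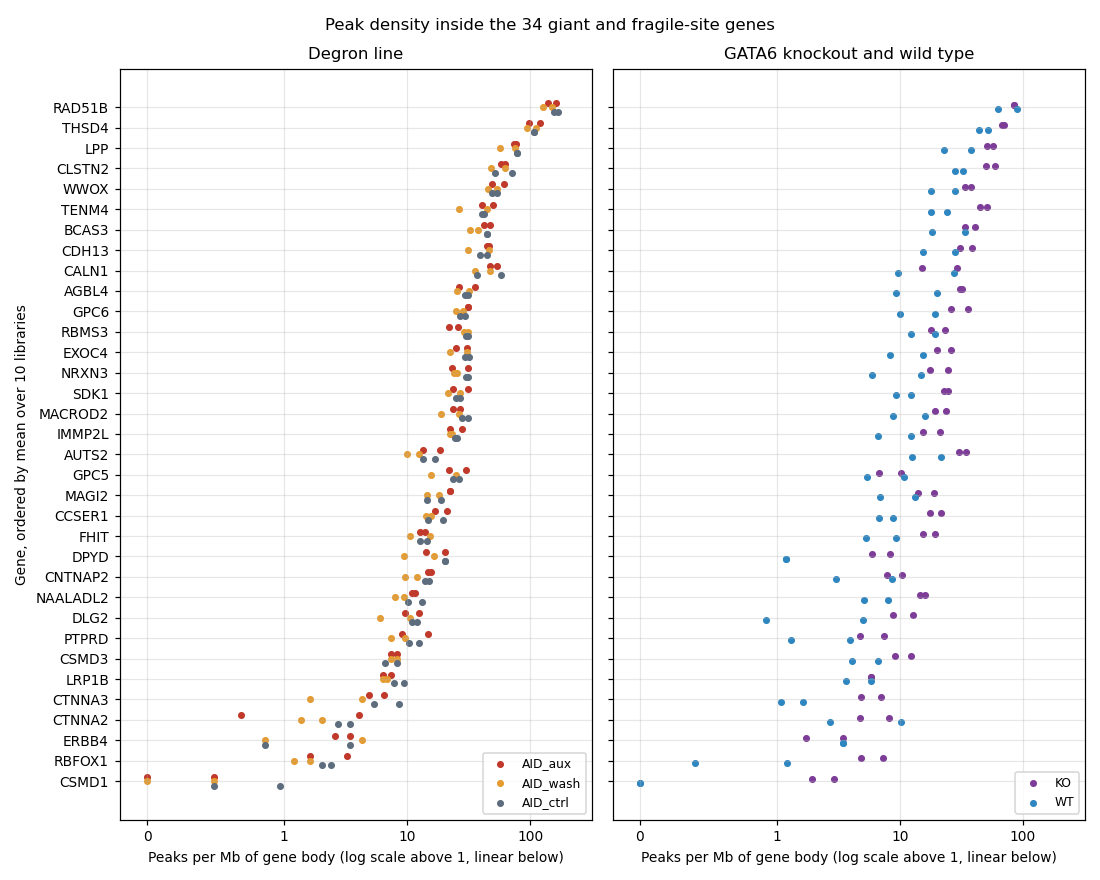
Peaks per Mb of gene body for each of the 34 genes (rows, ordered by their mean) in the 6 degron libraries (left panel, AID_aux, AID_wash and AID_ctrl) and the 4 KO and WT libraries (right panel), 1 point per library, on an axis that is logarithmic above 1 and linear below. The genes span from CSMD1 at a mean of 0.728 to RAD51B at 122.8 peaks per Mb.

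The density plot shows that the 34 genes do not behave as 1 class. The mean of a gene over the 10 libraries pools summit lines of the degron lists with 500 bp windows of the KO and WT lists. Means over the degron libraries and over the KO and WT libraries differed: 151.2 and 80.2 per Mb in RAD51B, and 16.8 and 4.15 in DPYD. In 7 of the 34 genes the degron mean was the lower, as in AUTS2 (14.1 and 24.7). List format and cell line cannot be told apart in these differences. RAD51B, a protein of DNA repair by homologous recombination, had the most peaks, at 141 and 120 in AID_aux, 110 and 130 in AID_wash, 146 and 136 in AID_ctrl, 73 and 73 in KO, and 77 and 54 in WT. Its mean of 122.8 peaks per Mb exceeded 99.3% of the other long genes, whereas CSMD1, with 0.728, exceeded 5.0%. WWOX, an oxidoreductase with WW domains, had 68 and 55 peaks in AID_aux, 51 and 60 in AID_wash, 60 and 55 in AID_ctrl, 42 and 38 in KO, and 31 and 20 in WT, a mean of 43.1 per Mb. FHIT, a hydrolase of dinucleotide polyphosphates, averaged 12.9 per Mb, so these 2 genes of long-known fragile sites lay well apart. MACROD2, which removes ADP-ribose from proteins, had 55 and 49 peaks in AID_aux, 39 and 54 in AID_wash, 57 and 64 in AID_ctrl, 49 and 40 in KO, and 33 and 18 in WT. Its AID_aux libraries lay below both AID_ctrl libraries, and its KO libraries above both WT libraries. AGBL4, a tubulin deglutamylase, averaged 27.2 peaks per Mb, the mitochondrial peptidase subunit IMMP2L 20.1, the dipeptidase-like NAALADL2 10.7, and DPYD, which starts pyrimidine breakdown, 11.7.

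Among the scaffold and junction genes LPP, a LIM-domain protein of focal adhesions, was densest at 61.1 peaks per Mb. It had 57 and 55 peaks in AID_aux, 42 and 56 in AID_wash, 58 and 58 in AID_ctrl, 42 and 38 in KO, and 28 and 17 in WT. The α-catenins that link cadherins to actin stood at the other end: CTNNA2 had 6 and 1 peaks in AID_aux, 3 and 2 in AID_wash, 5 and 4 in AID_ctrl, 12 and 7 in KO, and 15 and 4 in WT, and its KO and WT libraries overlapped. CTNNA3 had 12 and 9 in AID_aux, 3 and 8 in AID_wash, 16 and 10 in AID_ctrl, 13 and 9 in KO, and 3 and 2 in WT. Unlike CTNNA2, it was called at its start in all 10 libraries, and its KO libraries lay above both WT libraries. BCAS3 averaged 37.5 peaks per Mb, CALN1, a calcium-binding protein of the Golgi, 36.0, EXOC4 of the exocyst 23.9, the junction scaffold MAGI2 16.4, CCSER1 15.7, and the synaptic scaffold DLG2 8.93.

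Surface and secreted proteins held both extremes after RAD51B. THSD4, an extracellular matrix protein of the ADAMTS-like family, had 83 and 67 peaks in AID_aux, 65 and 77 in AID_wash, 74 and 74 in AID_ctrl, 48 and 46 in KO, and 36 and 30 in WT, or 87.4 per Mb, although its start was uncalled. CLSTN2, a calsyntenin of the cadherin superfamily, had 40 and 37 in AID_aux, 31 and 40 in AID_wash, 46 and 33 in AID_ctrl, 38 and 32 in KO, and 21 and 18 in WT. The complement-control-like CSMD1, over 2.06 Mb, had 1 and 0 peaks in AID_aux, 1 and 0 in AID_wash, 2 and 1 in AID_ctrl, 6 and 4 in KO, and 0 and 0 in WT. ERBB4, a receptor kinase for neuregulins, had 3 and 4 in AID_aux, 1 and 5 in AID_wash, 4 and 1 in AID_ctrl, 4 and 2 in KO, and 4 and 4 in WT, with no group standing apart from its control. The related pairs were uneven: the heparan sulfate proteoglycans GPC6 and GPC5 averaged 26.4 and 17.6 peaks per Mb, and CSMD3 averaged 7.83. The others ran from 6.53 per Mb in LRP1B, a lipoprotein receptor relative, through the receptor phosphatase PTPRD (8.13), CNTNAP2 (11.1), SDK1 (22.4) and NRXN3 (22.8) to the GPI-anchored cadherin CDH13 (36.4) and the teneurin TENM4 (38.1).

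Of the RNA-binding and nuclear genes, the splicing factor RBFOX1, with 2.47 Mb the longest of the 34, had 8 and 4 peaks in AID_aux, 3 and 4 in AID_wash, 5 and 6 in AID_ctrl, 18 and 12 in KO, and 3 and 1 in WT. AUTS2, a Polycomb-associated regulator, averaged 18.3 peaks per Mb. RBMS3, an RNA-binding protein, had 19 and 16 peaks in AID_aux, 21 and 23 in AID_wash, 22 and 23 in AID_ctrl, 17 and 13 in KO, and 14 and 9 in WT. It was the single gene whose AID_aux libraries lay below both AID_ctrl and both AID_wash libraries. Over all 10 lists the longest stretch without a peak had a median of 183 kb in the 34 genes and 109 kb in the other long genes. The other long genes had shorter bodies, with a median of 0.688 Mb against 1.20 Mb. As a share of the body, the longest stretch had a median of 14.0% in the 34 genes and 16.6% in the other long genes. It reached 1301 kb in CSMD1 (63.2% of its body), 602 kb in RBFOX1, 514 kb in CNTNAP2, 446 kb in CTNNA3 and 418 kb in ERBB4, and was 49.7 kb in RAD51B. Copy number was not measured, so whether any such stretch is deleted in DLD-1 was not tested.

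With 12 h of auxin the 34 genes kept most of their accessible regions. Peaks merged over the 6 degron lists gave 870 regions inside them, and a region was lost when both AID_ctrl libraries and neither AID_aux library called it, gained when the calls were the other way round, and retained if all 4 libraries had it. Of 478 such regions, 32 were lost, in 21 genes, 36 were gained, in 22 genes, and 410 were retained. The retained share was 85.8%, below the 89.4% of the other long genes and the 92.3% of all regions. The rest of the 870 regions had other calls and were left out of these shares. The lost share was 6.69% (95% Wilson interval 4.78% to 9.30%) and the gained share 7.53% (5.49% to 10.3%), beside 3.66% lost and 3.99% gained over all 74506 regions decided. The other long genes had 5.35% lost and 5.26% gained. Lost and gained regions were about equal in number in the 34 genes, as they were over all regions. Leaving out 1 library, so that a single call decides its group, gave 40 to 89 lost and 55 to 111 gained regions; the lost count passed 1.5 times its value without AID_aux replicate 1 (65), AID_ctrl replicate 1 (71) or AID_ctrl replicate 2 (89), and the gained count without any of the 4. No test was made, since an exact permutation test of 2 libraries against 2 cannot give a p below 0.333.

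MACROD2 lost 6 regions and gained 1, the most losses of any of the genes. LPP, DLG2, PTPRD, NRXN3, GPC6 and RBMS3 lost 2 each. DLG2 had 27 and 21 peaks in AID_aux, 13 and 23 in AID_wash, 24 and 26 in AID_ctrl, 28 and 19 in KO, and 11 and 2 in WT, so its AID_aux and AID_ctrl counts overlapped although 2 of its regions were lost. NRXN3, a presynaptic adhesion protein, had 53 and 39 in AID_aux, 41 and 43 in AID_wash, 53 and 51 in AID_ctrl, 42 and 30 in KO, and 25 and 10 in WT. PTPRD had 34 and 21 in AID_aux, 17 and 22 in AID_wash, 29 and 24 in AID_ctrl, 11 and 17 in KO, and 9 and 3 in WT. GPC6 went the other way in its total count, with 37 and 37 peaks in AID_aux, 30 and 34 in AID_wash, 32 and 35 in AID_ctrl, 43 and 31 in KO, and 23 and 12 in WT.

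Gains were led by BCAS3 with 4, followed by SDK1, MAGI2 and CNTNAP2 with 3 each. BCAS3 had 34 and 30 peaks in AID_aux, 23 and 27 in AID_wash, 32 and 32 in AID_ctrl, 29 and 24 in KO, and 24 and 13 in WT. MAGI2 had 32 and 32 in AID_aux, 21 and 26 in AID_wash, 27 and 21 in AID_ctrl, 27 and 20 in KO, and 19 and 10 in WT. MAGI2 was thus higher in AID_aux than in AID_ctrl, while for BCAS3 the groups overlapped. SDK1, an immunoglobulin-family adhesion protein, had 30 and 23 in AID_aux, 21 and 26 in AID_wash, 24 and 26 in AID_ctrl, 24 and 22 in KO, and 12 and 9 in WT. CNTNAP2, a neurexin-family protein, had 36 and 34 in AID_aux, 22 and 28 in AID_wash, 35 and 32 in AID_ctrl, 24 and 18 in KO, and 20 and 7 in WT. In whole-gene counts both AID_aux libraries exceeded both AID_ctrl libraries in 2 genes (MAGI2 and GPC6; 8.42% of all genes tested were higher) and were below them in 4 (MACROD2, LPP, LRP1B and RBMS3; 7.8% of all genes were lower). Per 100000 peaks of the list 3 were higher (WWOX, MAGI2 and TENM4) and 8 lower, beside 16.5% and 15.3% of all genes, and GPC6 and LPP no longer stood apart.

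**Figure D2:**
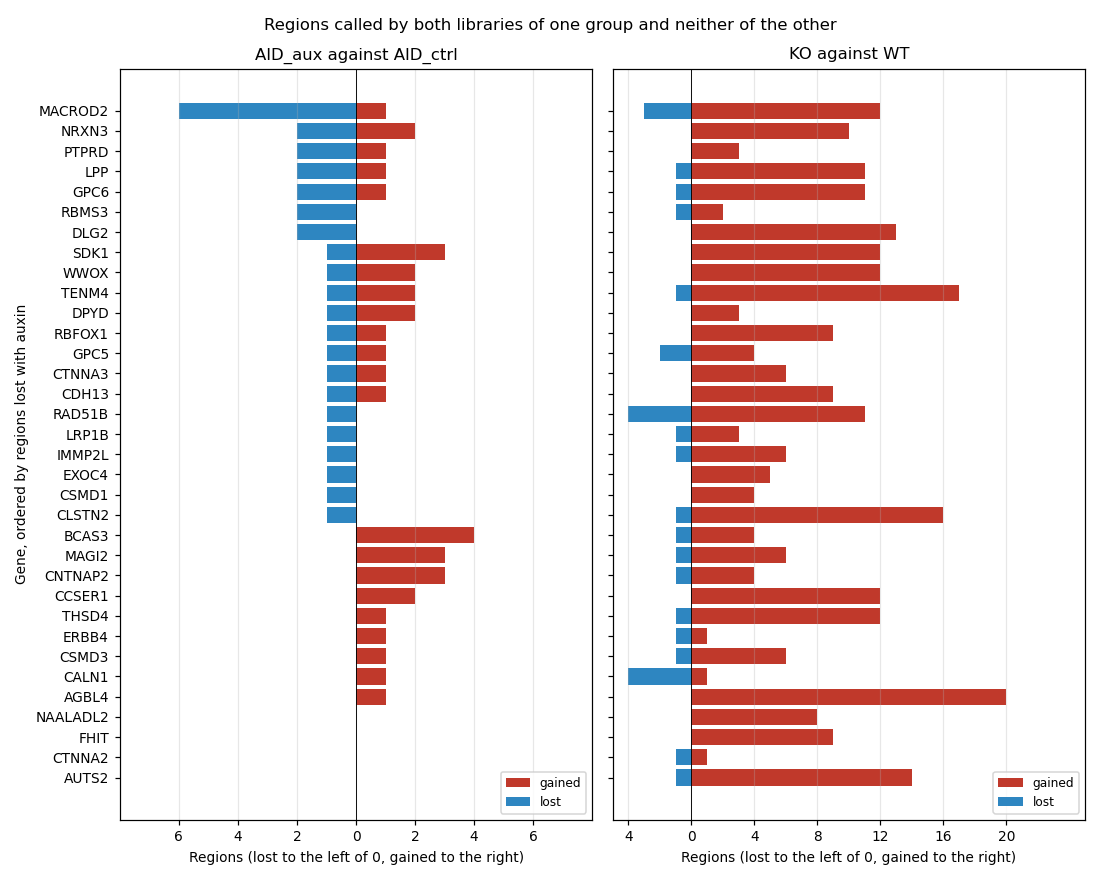
Regions lost (blue, left of 0) and gained (red, right of 0) in each of the 34 genes for AID_aux against AID_ctrl (left panel) and KO against WT (right panel), in numbers of merged regions, with genes ordered by losses with auxin. MACROD2 has 6 losses with auxin, and AGBL4, TENM4 and CLSTN2 have 20, 17 and 16 gains in KO.

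Restricting the regions to those above the list median −log10 p in both calling libraries, called strong here, left 6 of the 32 losses and none of the 36 gains. In the 34 genes 6 strong regions were lost with auxin, 0 gained and 211 retained, a lost share of 2.76% (1.27% to 5.90%), beside 0.449% lost and 0.024% gained over all 41693 strong regions. The other long genes lost 11 and gained 0 of 1469. The 6 lay in MACROD2, DLG2, NRXN3, GPC6, EXOC4 and CLSTN2, none within 1000 bp of a gene end, and all 6 were called again by both AID_wash libraries, as were 178 of the 187 strong losses over all regions (95.2%). The strongest was in MACROD2 at chr20:14672747-14673898, 678 kb from the gene start. The authors' fold enrichment there was 11.1 and 14.1 in AID_wash and 13.2 and 13.02 in AID_ctrl, with no peak in either AID_aux library. Its −log10 p stood at list percentiles 82.9 and 79.4 in AID_ctrl, and that of the DLG2 region at 74.1 and 68.1. The other strong losses lay nearer the median that sets the class. CLSTN2 stood at percentiles 51.4 and 50.5, EXOC4 at 54.4 and 51.6, NRXN3 at 51.0 and 63.1, and GPC6 at 53.5 and 58.6. In AID_wash replicate 1 the EXOC4 call stood at percentile 7.24 and the GPC6 call at 14.5.

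The DLG2 region (chr11:83710887-83711787, 1917 kb from the start) had no peak in AID_aux, folds of 10.1 and 7.42 in AID_wash, and folds of 10.25 and 9.81 in AID_ctrl. In GPC6 (chr13:94138140-94139811) the folds were 4.63 and 7.84 in AID_wash and 7.96 and 8.35 in AID_ctrl. In NRXN3 (chr14:79346019-79346910) they were 5.89 and 7.37 in AID_wash and 7.35 and 9.49 in AID_ctrl. The EXOC4 region (chr7:133935974-133936782) had 4.21 and 9.29 in AID_wash and 7.45 and 7.18 in AID_ctrl. The CLSTN2 region (chr3:140017760-140019131) had 6.49 and 6.83 in AID_wash and 6.73 and 7.13 in AID_ctrl. At all 6 regions at least 1 AID_wash value lay below both AID_ctrl values. Folds are the authors' values within each list and are given as a description.

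**Figure D3:**
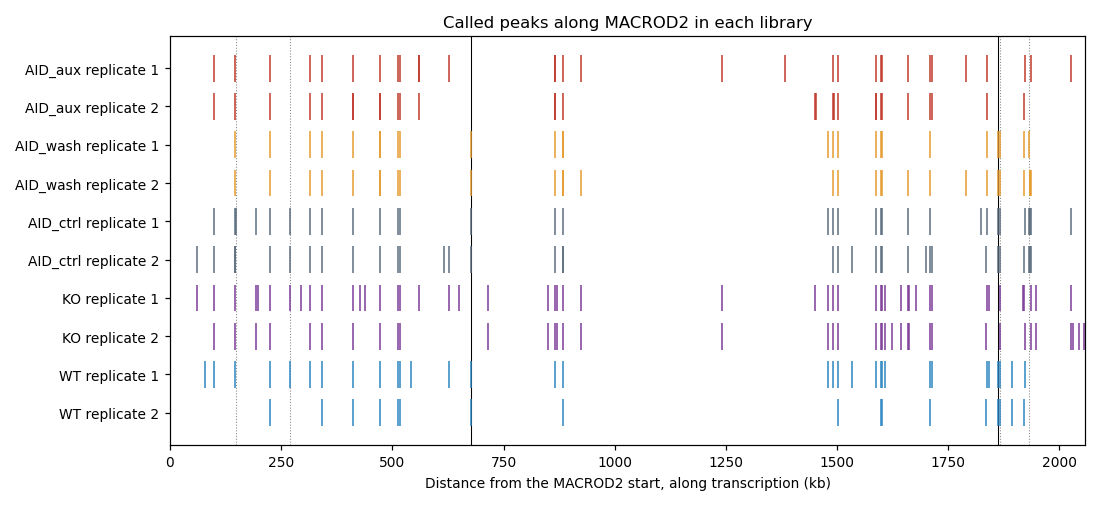
Called peaks (ticks) along the 2.06 Mb MACROD2 gene, as distance in kb from its start, in each of the 10 libraries (rows: AID_aux, AID_wash, AID_ctrl, KO and WT). Black vertical lines mark the 2 regions lost both with auxin and in KO, at 678 and 1862 kb, and dotted lines the other 4 lost with auxin.

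After the wash part of the regions lost with auxin in the 34 genes were called again, and most of the gained ones were not. Of the 32 regions lost with auxin, 16 were called by both AID_wash libraries, 8 by 1 and 8 by neither. Of the 36 gained, 1 was called by both, 13 by 1 and 22 by neither. Both AID_wash libraries also called 359 of the 410 retained regions (87.6%). Over all regions they called 32.4% of those lost with auxin, 9.78% of those gained and 90.4% of those retained. AID_wash replicate 1 had a shorter list than either AID_ctrl library (154150 peaks), and the part of list length in these shares was not tested.

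AID_wash set against AID_aux gave 49 regions lost, 20 gained and 372 retained in the 34 genes, or 11.1% lost and 4.54% gained, beside 5.6% and 1.95% over all regions. The 2 strong gains among them were again the MACROD2 and DLG2 regions, beside 0.21% of all strong regions gained, and no strong region was lost, beside 0.0259%. AID_wash set against AID_ctrl gave 29 lost, 3 gained and 390 retained, or 6.87% and 0.711%, beside 4.21% and 1.08%, with 0 strong regions lost, beside 0.0178%, and 0 gained. By whole-gene counts 1 gene (RBMS3) was higher and 8 were lower in AID_wash than in AID_aux, beside 3.64% and 15.2% of all genes. None was higher and 16 were lower than in AID_ctrl, beside 3.24% and 15.1% of all genes and 34.3% of the other long genes. Per 100000 peaks of the list, which takes list length into account, 4 were higher (11.8%) and 9 lower (26.5%) than in AID_aux. Of all genes 15.7% were higher and 14.8% lower, so the excess of lower genes over all genes was also seen on that scale. The other long genes were also lower more often than all genes there. Against AID_ctrl 3 were higher and 12 lower per 100000 peaks, beside 13.7% and 14.3% of all genes and 8.96% and 28.0% of the other long genes. With the lists cut to the length of the shortest, 17 regions were lost and 20 gained against AID_aux, which turns the balance round, and 19 were lost and 10 gained against AID_ctrl. Leaving out AID_wash replicate 1 gave 53 gains over AID_ctrl and 56 over AID_aux, the highest of any library left out. Gains over AID_ctrl were 11 without AID_wash replicate 2, 15 without AID_ctrl replicate 1 and 10 without AID_ctrl replicate 2.

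In the knockout the 34 genes carried more called windows than in WT, which the lists as a whole did too. The 2 KO lists together held 1.55 times the peaks of the 2 WT lists, and within the 34 genes the ratio was 1.75, beside 1.78 in the other long genes. In 25 of the 34 genes both KO libraries exceeded both WT libraries, and in none were both lower, beside 37.1% higher and 2.16% lower of all genes, and 77.2% higher of the other long genes. Scaled to 100000 peaks of the list, 18 were higher and 5 lower (RAD51B, LRP1B, ERBB4, GPC5 and RBMS3), beside 23.7% and 31.3% of all genes and 46.7% and 13.8% of the other long genes.

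The ratio of KO to WT peaks was highest in RBFOX1, at 7.50, with 18 and 12 peaks in KO against 3 and 1 in WT. DPYD had 5 and 7 peaks in KO against 1 and 1 in WT, a ratio of 6.0. The degron lists are longer and hold summit lines in place of 500 bp windows, so their counts are not on the same scale. They held 17 and 12 DPYD peaks in AID_aux, 8 and 14 in AID_wash, and 17 and 17 in AID_ctrl. CTNNA3 followed with 4.40, DLG2 with 3.62, and CCSER1 with 2.52, from 32 and 26 peaks in KO against 13 and 10 in WT (31 and 25 in AID_aux, 21 and 23 in AID_wash, 29 and 22 in AID_ctrl). CSMD1 was listed at 0 in both WT libraries against 6 and 4 in KO, so it has no ratio. These high ratios stood mostly on few WT peaks: DPYD, RBFOX1 and CTNNA3 had 1 to 3 per WT library. ERBB4 was lowest, at 0.750, and the median of the 33 genes with a ratio was 1.88.

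**Figure D4:**
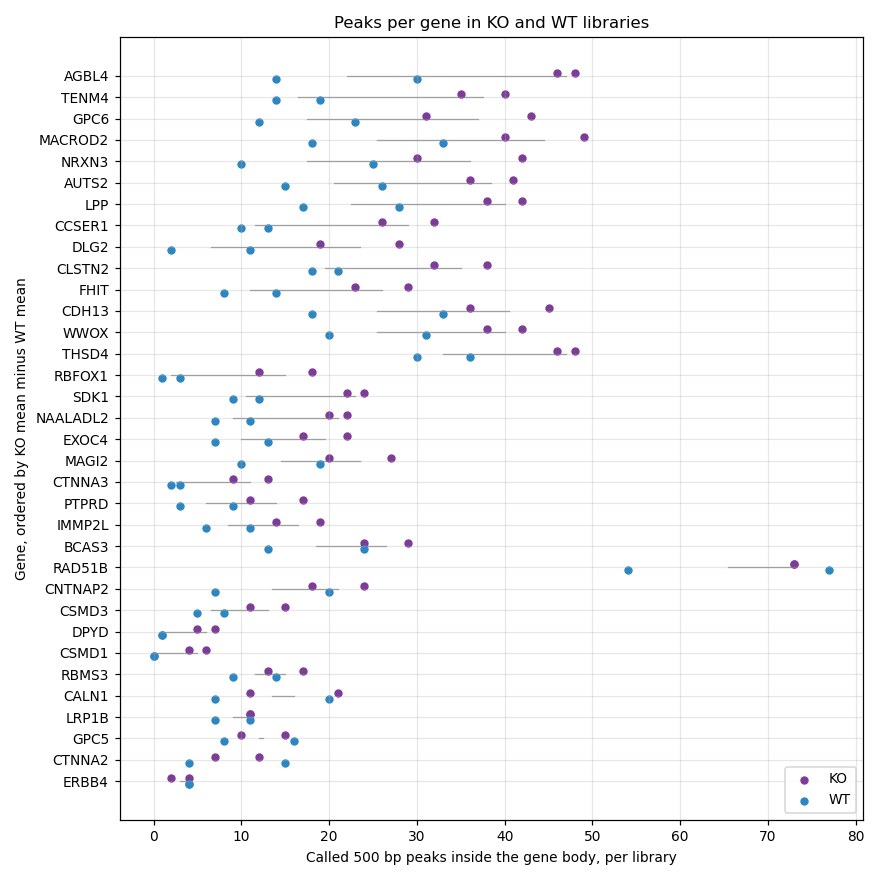
Called 500 bp peaks inside each of the 34 genes in the 2 KO and the 2 WT libraries (points), with a line between the group means, ordered by the difference of the means. Both KO points lie right of both WT points in 25 genes, and the groups overlap or tie in the other 9.

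Merged over the 4 KO and WT lists, the genes held 1178 regions, of which 28 were lost, 277 gained and 266 retained in KO. The gained share was 48.5% (44.4% to 52.6%), beside 37.1% over all regions and 49.1% in the other long genes. The lost share was 4.90% (3.41% to 7.0%), beside 2.36% over all regions and 2.27% in the other long genes. Every one of the 34 genes gained at least 1 region and 19 lost at least 1. Without WT replicate 2, whose list is the shortest, the lost regions numbered 122 and the gained 283, and without WT replicate 1 they numbered 77 and 464. Without KO replicate 2 the gained regions numbered 440. The lost count thus rests on a region being called by both WT lists.

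Gains were most numerous in AGBL4 (20), TENM4 (17) and CLSTN2 (16). AGBL4 had 53 and 40 peaks in AID_aux, 38 and 48 in AID_wash, 47 and 44 in AID_ctrl, 48 and 46 in KO, and 30 and 14 in WT. TENM4 had 39 and 32 in AID_aux, 21 and 35 in AID_wash, 33 and 32 in AID_ctrl, 40 and 35 in KO, and 19 and 14 in WT. In both genes the KO libraries were clear of the WT libraries. Of the 277 gained regions, 137 were called by no degron list and 24 by all 6. Both AID_aux libraries called 70 of them, both AID_wash libraries 32 and both AID_ctrl libraries 59. Losses were most numerous in CALN1 and RAD51B (4 each) and MACROD2 (3). CALN1 had 39 and 34 peaks in AID_aux, 26 and 34 in AID_wash, 42 and 27 in AID_ctrl, 11 and 21 in KO, and 20 and 7 in WT, so its KO and WT libraries overlapped in total. CALN1 was 1 of 3 genes, with CTNNA2 and ERBB4, where gains did not outnumber losses.

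**Figure D5:**
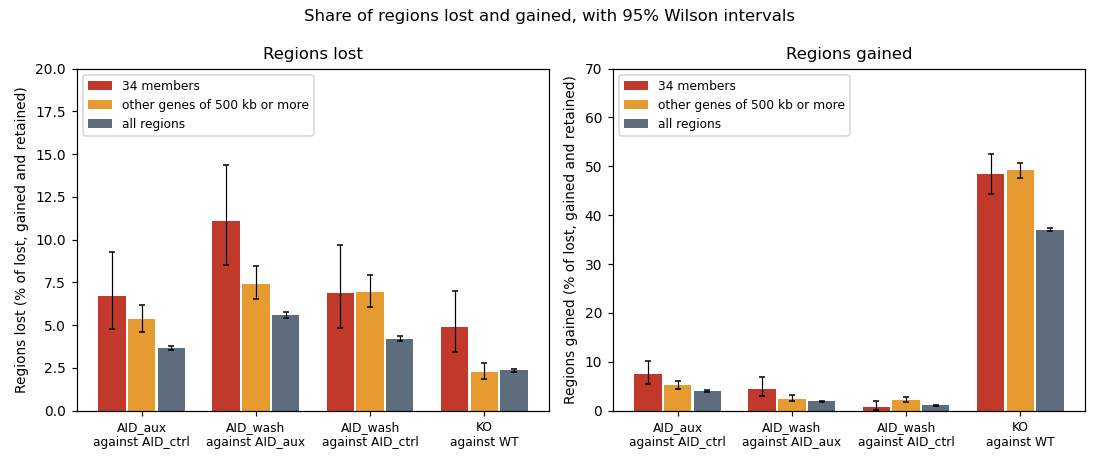
Share of regions lost (left panel) and gained (right panel) among those lost, gained or retained, in percent with 95% Wilson intervals, for the 34 genes (red), the 280 other genes of at least 500 kb (orange) and all regions (grey), in 4 comparisons. For KO against WT the 34 genes lost 4.90% and gained 48.5%, beside 2.36% and 37.1% of all regions.

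The share plot puts the 34 genes above all regions for losses in each of the 4 comparisons, and the other long genes above all regions in 3 of them. The intervals cover counting error only and treat regions as independent, which neighbouring regions of a gene may not be. In KO against WT the share lost in the 34 genes was higher than in the other long genes, on 28 regions. The lost share was also higher in AID_aux against AID_ctrl (6.69% beside 5.35%) and AID_wash against AID_aux (11.1% beside 7.43%). In AID_wash against AID_ctrl it was 6.87% beside 6.95% in the other long genes, and the gained share was 0.711% beside 2.18%.

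The degron and knockout comparisons share no library, and 4 regions were lost in both. Of the 32 member regions lost with auxin, 4 (12.5%) overlapped a region lost in KO, which is 14.3% of the 28 lost in KO. Of the 410 retained with auxin, 10 (2.44%) did so, and of the 36 gained, 0. Over all regions the shares were 7.88% of those lost with auxin, 1.21% of those retained and 0.269% of those gained. The 4 were the strong MACROD2 and GPC6 regions, another MACROD2 region (chr20:15856922-15857668, 1862 kb from the start), and a region in RBMS3 (chr3:29940276-29941334, 660 kb from the start). Each was called by no AID_aux, both AID_wash and both AID_ctrl libraries, and by no KO and both WT libraries.

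Peak heights at these places ranged widely. The other MACROD2 region had folds of 5.01 and 3.85 in AID_wash and 5.48 and 6.92 in AID_ctrl. The RBMS3 region had 7.21 and 7.29 in AID_wash and 6.86 and 6.23 in AID_ctrl, so its AID_wash values were above both AID_ctrl values. Of the other strong auxin losses, DLG2 and CLSTN2 were each called by 1 KO library, and EXOC4 and NRXN3 by no KO and 1 WT library. Of the 28 regions lost in KO, 10 were called by all 6 degron lists, among them 3 of the CALN1 regions, 2 in RAD51B and 1 each in LPP, TENM4, THSD4, CLSTN2 and GPC5. Another 10 were called by no degron list. A region of THSD4 (chr15:71747876-71748599) and one of TENM4 (chr11:79086113-79086823) each overlapped the intervals of 6 or 7 summit lines in every degron library, AID_aux included. Neither region overlapped a window in either KO library.

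Within their own list the peaks of the 34 genes had fold enrichments near the list median and a lower −log10 p. Fold enrichment was among the values used to choose the genes, so it is given as a description. Their median fold stood at percentiles 51.7 to 53.8 of the list in the 6 degron libraries, and at 46.1 to 50.6 where each interval was counted once. Their median −log10 p was 11.5 to 12.9, against 14.3 to 16.3 for whole lists. By gene the mean percentile ran from 42.2 in CTNNA2 and 43.3 in RAD51B, the densest gene, to 63.6 in NRXN3 and 65.6 in LRP1B. Only 4.64% to 6.26% of the member peaks lay within 1000 bp of a gene end, against 24.4% to 28.1% of whole degron lists. In the other long genes that share was 4.75% to 5.96%. Regions called by all 6 degron lists made up 41.3% of the 870 member regions, against 51.6% of all regions and 43.5% in the other long genes. Of these 359 regions, 233 (64.9%) overlapped a region called by all 4 KO and WT lists.

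Along the 30 genes with a listed strand, cut into 10 equal parts from the start, no part held fewer than 7.45% or more than 13.4% of the member peaks by the median over libraries. Other coding genes share 6 of the bodies: MAF with WWOX, FLRT3 with MACROD2, LRRN3 with IMMP2L, BEND5 with AGBL4, LRRTM1 with CTNNA2 and LRRTM3 with CTNNA3. Peaks in the shared stretches numbered 0 to 13 per library, at most 1.13% of the member peaks.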

How the data were processed

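ATAC-seq peak lists of 10 DLD-1 libraries in 5 groups of 2 were used. Per the submitters' processing notes the tools included MACS2 2.1.1, Bowtie2 2.4.2, Trim Galore 0.6.10 and Picard, with hg38 as build, and their settings, any shift of reads for the transposase and any blacklist not given in the sources used here. Each list was deposited per library. The 6 deposited degron lists hold summit lines with a score, a fold enrichment ratio, a −log10 p and a −log10 q-value per peak, of which the ratio and the −log10 p were used within a list. The 4 deposited KO and WT lists hold coordinates of 500 bp windows. The lists hold no reads per peak, so depth is unknown, and list length limits the precision.

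A peak belonged to a gene when its midpoint lay inside the RefSeq body (GRCh38.p14, matched by symbol: 34 of 34). For chromosomes 1 to 22 and X, overlapping or touching peaks were merged, separately over the degron and over the KO and WT lists, and a library called a region with 1 bp of overlap. Interval code was tested on simulated data. Intervals for shares are Wilson intervals at 95% and cover counting error only. No value was tested across libraries, since an exact permutation test of 2 against 2 cannot reach 0.05. The genes, the markers and the comparisons were chosen with earlier results of these data known. A list of other fragile-site genes is not reported here. Values in every library are given for the 5 genes highest and lowest in peaks per Mb, the 5 with the highest KO to WT ratio, and the 3 with most regions lost and gained with auxin and in KO, ties included. Regions named are strong auxin losses and regions lost in KO. Python 3.11.15, numpy 2.4.6 and pandas 2.3.3 were used. Alternatives tried are listed in the closing part.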

Additional observations from a re-analysis of the deposited data

Results flagged for a closer look

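In 3 genes the peaks per 100000 of the list moved one way in both AID_aux libraries against AID_ctrl and the opposite way in both KO libraries against WT. All 3 were lower in AID_aux and higher in KO. Other genes moved the same way in both comparisons: RAD51B, LRP1B and RBMS3 were lower in both, and TENM4 was higher in both. On that scale 15.3% of all genes were lower in AID_aux and 23.7% were higher in KO. The share of all genes with both moves is not given here, so the count of 3 has no background beside it. DPYD averaged 7.75 in AID_aux and 9.20 in AID_ctrl, but 4.93 in KO and 1.30 in WT, a difference between the 2 effects of -5.086. EXOC4 averaged 12.6 in AID_aux and 14.0 in AID_ctrl, but 15.7 in KO and 12.3 in WT, a difference of -4.884. CSMD1 averaged 0.252 in AID_aux and 0.803 in AID_ctrl, but 4.02 in KO and 0 in WT, a difference of -4.574, on at most 6 peaks in any library. These differences between the degron and the knockout comparison were not tested.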

How the results depend on the processing

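No paired analysis was possible because the results come from no test, and replicate numbers name no shared culture. Leaving out 1 library, so that a single call decides its group, gave 40 to 89 regions lost and 55 to 111 gained in the 34 genes for AID_aux against AID_ctrl, 60 to 144 lost and 24 to 56 gained for AID_wash against AID_aux, 39 to 99 lost and 10 to 53 gained for AID_wash against AID_ctrl, and 30 to 122 lost and 283 to 464 gained for KO against WT. The count of 25 genes higher in KO was 25 to 33. Keeping peaks with a −log10 p of at least 10 gave 19 lost and 8 gained for AID_aux against AID_ctrl, 17 and 10 for AID_wash against AID_aux, and 15 and 0 for AID_wash against AID_ctrl. Strong regions alone gave 6 and 0, 0 and 2, and 0 and 0 in the same order. With lists cut to the shortest, losses were 17 for AID_wash against AID_aux, and AID_wash against AID_ctrl gave 19 lost and 10 gained. Fixed windows of 500 bp gave 31 gained for AID_wash against AID_aux, and 48 lost and 18 gained for AID_wash against AID_ctrl. Requiring a peak to cover 50% of a region, or widening bodies by 10 kb, moved no count of regions by over 1.5 times. Mean member peaks fell with distinct intervals to 645.5 in AID_aux, 548 in AID_wash and 623.5 in AID_ctrl, and with a −log10 p of at least 10 to 627, 562 and 658.5. With lists cut to the shortest they were 841 in AID_aux and 876 in AID_ctrl. The share of the list became 0.613% in AID_aux, 0.623% in AID_ctrl and 0.736% in KO with bodies widened by 10 kb. It became 0.508% in AID_aux, 0.499% in AID_wash and 0.534% in AID_ctrl with a −log10 p of at least 10, and 0.619% in AID_ctrl by covered bases. The median percentile of fold enrichment with distinct intervals was 47.0 in AID_aux, 49.0 in AID_wash and 49.4 in AID_ctrl. The direction of auxin changes in the 34 genes thus depended on peak strength: losses and gains were near equal in number over all regions and losses led among stronger ones. The causes were not tested. With no read counts, a region called in 1 library and not another may differ little in reads.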
